A study of Mus musculus with 68 samples.

Results

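The genes of the synaptic vesicle and release machinery were examined in individual dopamine neurons from the ventral tegmental area of the mouse. The 48 genes were chosen by their symbol from a fixed list, and all 48 were found among the 35794 genes of the deposited table. They fall into 5 roles, namely 6 calcium sensors, 15 SNAREs and SNARE regulators, 14 vesicle proteins, 9 active zone and priming proteins and 4 endocytosis proteins. The RNA came from 68 neurons, 33 of them from 3xTg mice and 35 from WT mice, all 12 months old and of both sexes. 3xTg mice are homozygous for Alzheimer disease transgenes, mutant human APP and mutant human tau among them, on a mixed C57BL/6;129 background, and WT mice, which lack them, came from a colony of their own on that background. The cell content was drawn into the recording pipette after the tail current had been measured (Patch-seq), and the authors kept neurons with Th, Slc6a3 and Slc18a2 and without Pvalb, Tmem119, P2ry12 and Aldh1l1.

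The labels name no mouse. Each genotype was therefore taken as 1 sample, with no test between genotypes, and an interval or SD below covers counting error or the variation from cell to cell, never that between mice. A level is the sum of a gene's counts over cells, per 1000000 counts of those cells (CPM). A ratio is the log2 ratio of these levels, 3xTg over WT, with a 95% interval from the exact binomial split of both sums. Levels of different genes are given per kilobase of the longest RefSeq transcript.

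Transmitter release needs a short chain of proteins. Vesicles are filled, held near the membrane by synapsins and Rab3, docked and primed at the active zone by RIM, Munc13 and CAPS proteins, and fused when the vesicle SNARE synaptobrevin zips together with syntaxin and SNAP-25 under the control of complexin. Synaptotagmins sense calcium, NSF and SNAP proteins take the spent SNARE complexes apart, and dynamin, endophilin, synaptojanin and amphiphysin bring the membrane back. Dopamine neurons release dopamine from axons in the forebrain and also from their soma and dendrites in the midbrain, and the RNA measured here was from the cell body.

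Cells held 676602 to 1678655 counts in 3xTg, with a median of 1194544, and 492436 to 1327349 counts in WT, with a median of 982452. The number of genes with a count had a median of 8510 in 3xTg and 7476 in WT. The genes Th, Slc6a3, Slc18a2 and Ddc, which define dopamine neurons, were counted in every cell, and their summed level was 19270 CPM in 3xTg and 15171 CPM in WT. The summed level of the other markers was lower in 3xTg than in WT for astrocytes (14.001 against 164 CPM), microglia (129 against 427 CPM) and oligodendrocytes (94.1 against 292 CPM), as well as for GABA (29.1 against 45.6 CPM) and glutamate neurons (14.98 against 43.5 CPM). For microglia the median cell lay the other way, at 34.8 CPM in 3xTg and 25.2 CPM in WT. The highest cells held 4211 CPM of microglia markers in 3xTg and 2869 CPM in WT. For astrocytes the median cell held 0 CPM in both genotypes and the highest cells 272 CPM in 3xTg and 2410 CPM in WT. These sums thus lean on few cells. The endothelial genes were at or near 0, with 1 count in each genotype. Pvalb, Tmem119 or P2ry12 had a count in 5 cells of each genotype, and Aldh1l1 had none. Cells are numbered in their labels, and consecutive numbers share a genotype. There are 17 WT cells from 1 to 22, 21 3xTg cells from 24 to 55, 15 WT cells from 57 to 74, 12 3xTg cells from 76 to 92 and 3 WT cells from 94 to 96. The labels do not say what a number stands for. For all 68 cells it maps to the S number of its column as rows against columns of a 96-well plate would. What part a plate position has in the values was not tested. These runs of numbers are called the first, second and last runs here, and most ratios are also given between the first and between the second runs, which share no cells.

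Most neurons held a count for most of the 48 listed genes, a list chosen with earlier results of these data known. A cell held a count of at least 1 for a median of 42 of the 48 genes in 3xTg (lowest 23, highest 46) and of 40 in WT (lowest 24, highest 46). The 2 ranges overlapped over almost their whole width. Of 43 further genes of release and vesicle recycling, described at the end, a cell held a median of 28 in 3xTg and 26 in WT. Together the 48 genes made up 2.16% of all counts in 3xTg and 2.04% in WT. The summed level in a cell had a lowest, median and highest value of 9052, 22138 and 30528 CPM in 3xTg and of 9391, 19759 and 33668 CPM in WT.

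How many of the genes a cell held followed how many genes of any kind it held, as the plot of release genes against all genes counted shows. Pearson's r was 0.92 over the 68 cells, and both measures share the library and its depth. The summed level did not follow it (r = 0.03). The first and the last WT runs had the fewest, with medians of 36 release genes in both, against 41 in the first 3xTg and in the second WT run and 43 in the second 3xTg run. The median number of genes of any kind was 5233 in the first WT run and 9308 in the second 3xTg run.

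**Figure D1:**
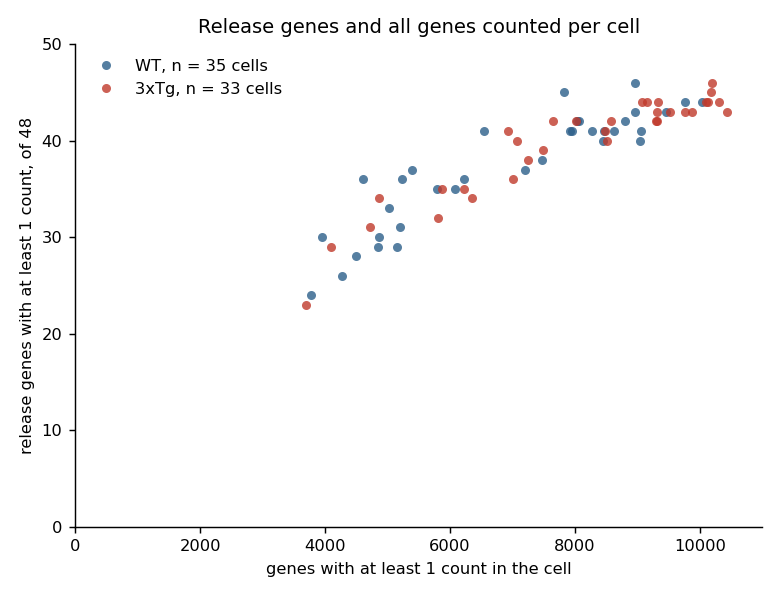
Each point is 1 cell, with the number of genes counted in it on the horizontal axis and the number of the 48 release genes counted in it on the vertical axis, 3xTg in red and WT in blue. Cells with few genes of any kind also held few release genes, and cells of both genotypes lie on 1 course.

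Of the 48 genes, 33 were expressed by the criterion used, which asks that 80% or more of the cells of a genotype reach a normalized count of 1. The counts of 12 genes were above 0 in all 68 cells, and 6 genes were counted in under 50% of the cells. All 6 calcium sensors passed, as did 12 of 15 SNAREs and regulators, 8 of 14 vesicle proteins, 4 of 9 active zone and priming proteins and 3 of 4 endocytosis proteins. The 15 that did not pass were Stx1a, Stxbp5, Vamp1, Syn1, Syn2, Sv2b, Synpr, Syngr1, Rab3b, Rims1, Rims2, Unc13a, Unc13b, Unc13c and Dnm1, and a gene could pass through 1 genotype alone. In both genotypes 25 of the 33 passed. Stx7, Stx12, Vamp3, Syn3, Rab3d, Cadps and Amph passed through 3xTg alone and Syt2 through WT alone. The map of the genes in every cell shows the genes of high level as bands through all runs.

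**Figure D2:**
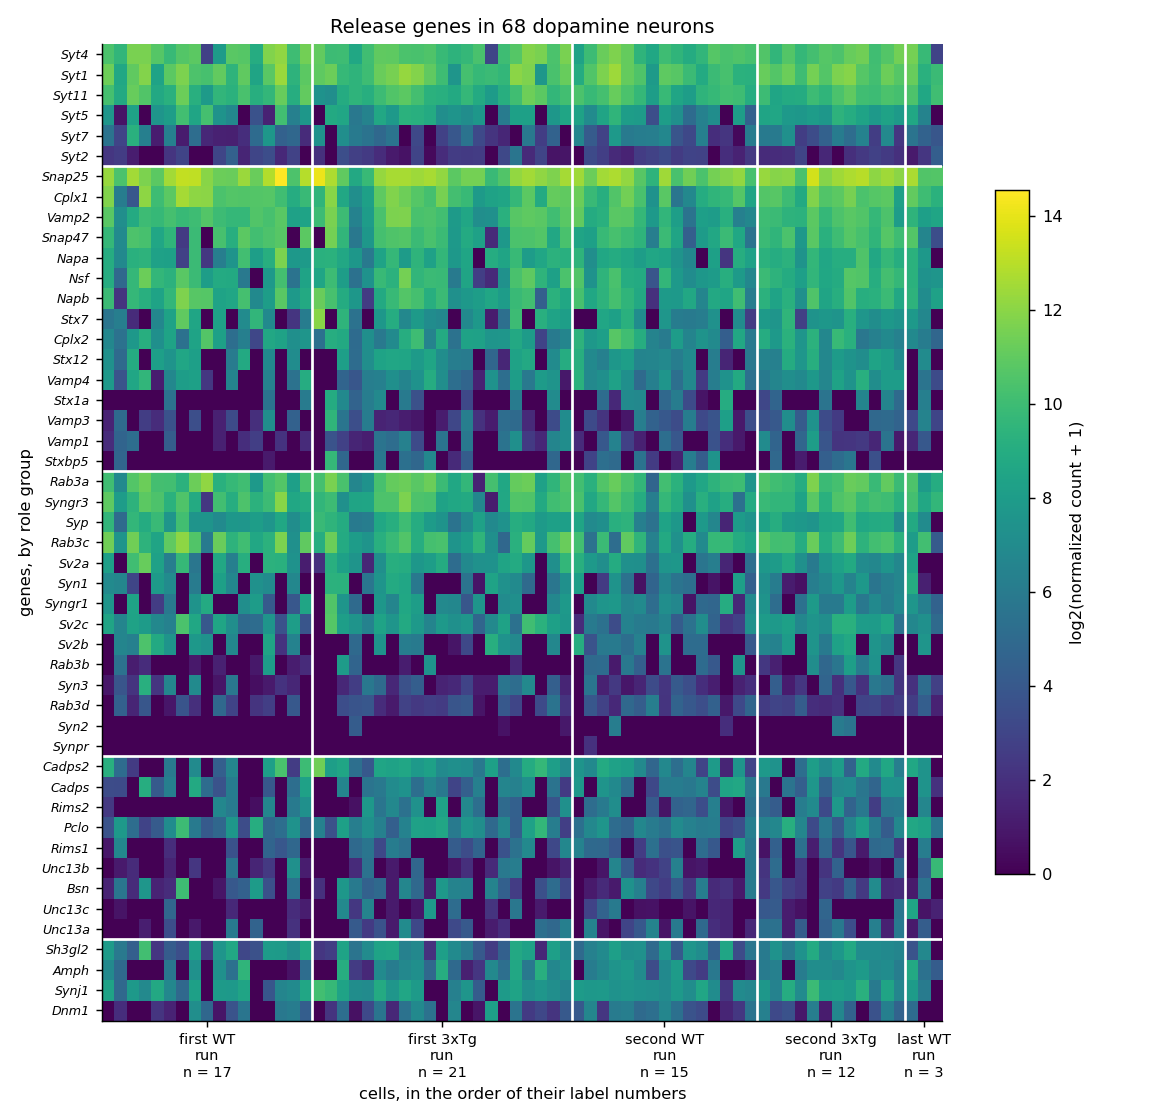
Rows are the 48 genes by role group (calcium sensors, SNAREs and regulators, vesicle proteins, active zone and priming, endocytosis), columns are the 68 cells in the order of their label numbers, and colour is log2(normalized count + 1). Bands such as Snap25, Syt1 and Rab3a run through all 5 runs, while Stx1a, Stxbp5 and Synpr are dark in most cells.

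By summed CPM no expressed gene of the machinery passed a 2-fold difference between the genotypes in either direction, while on a second measure, the difference of mean log2(normalized count + 1) over cells, 8 of the 33 were higher in 3xTg by at least 1 log2 unit, as were 27.7% of all expressed genes. Of all 3988 expressed genes, 2.63% were by summed CPM at least 2-fold higher in 3xTg and 3.81% at least 2-fold lower, so that a count of 0 among 33 lies near what the whole table gives. The median ratio of the 33 genes was 0.01 on the log2 scale, against -0.03 for all expressed genes. Of the 33 ratios 18 were above 0, as were 47.9% of those of all expressed genes. The ratios ran from -0.84 (Rab3d) to 0.79 (Sv2c). The second measure, the mean over cells, gave a median of 0.47 for the 33 genes and 0.47 for all expressed genes. On this measure 29 of the 33 differences lay above 0 and 70.9% of all expressed genes did, and 16 of the 33 lay above the median gene. The 8 genes past 1 log2 unit were Cadps2 (2.07), Amph (1.77), Sv2c (1.53), Stx7 (1.51), Stx12 (1.46), Sv2a (1.33), Napa (1.09) and Syt5 (1.04). None lay at or below -1, against 0.527% of all expressed genes. Of the 8, Amph, Stx7 and Stx12 had passed the criterion through 3xTg alone, the genotype in which they were higher. By summed CPM Sv2a went the other way, with a ratio of -0.15 (-0.19 to -0.10). It was -0.50 in the first and 0.29 in the second runs, and 0.11 without WT cell 6. After the median gene was subtracted, 4 of the 33 (Cadps2, Amph, Sv2c and Stx7) remained past 1 log2 unit, against 13.1% of all expressed genes, and none lay at or below -1, against 6.04%. The shares of the machinery above 1 lie near those of the whole table.

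The 5 groups had median ratios of -0.07 (calcium sensors), 0.28 (SNAREs and regulators), -0.02 (vesicle proteins), -0.31 (active zone and priming) and 0.35 (endocytosis) over their expressed genes. The last 2 rest on 4 and 3 genes. The 2 pairs of runs did not give the same picture. In the first runs the median over the 33 genes was -0.04, with 15 above 0, and in the second runs it was 0.27, with 24 above 0. The medians of all expressed genes were 0.12 and -0.11 in the same pairs, with 58.5% and 44.3% of them above 0. The direction was the same in both pairs for 14 of the 33 genes, 10 of them higher and 4 lower in 3xTg, and for 51.5% of all expressed genes. The 10 were Syt1, Stx7, Stx12, Vamp2, Nsf, Rab3a, Sv2c, Pclo, Synj1 and Amph, and the 4 were Syt7, Syt11, Bsn and Cadps. Stx7, Stx12 and Amph among the 10 had passed the criterion through 3xTg alone, as had Cadps among the 4.

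**Figure D3:**
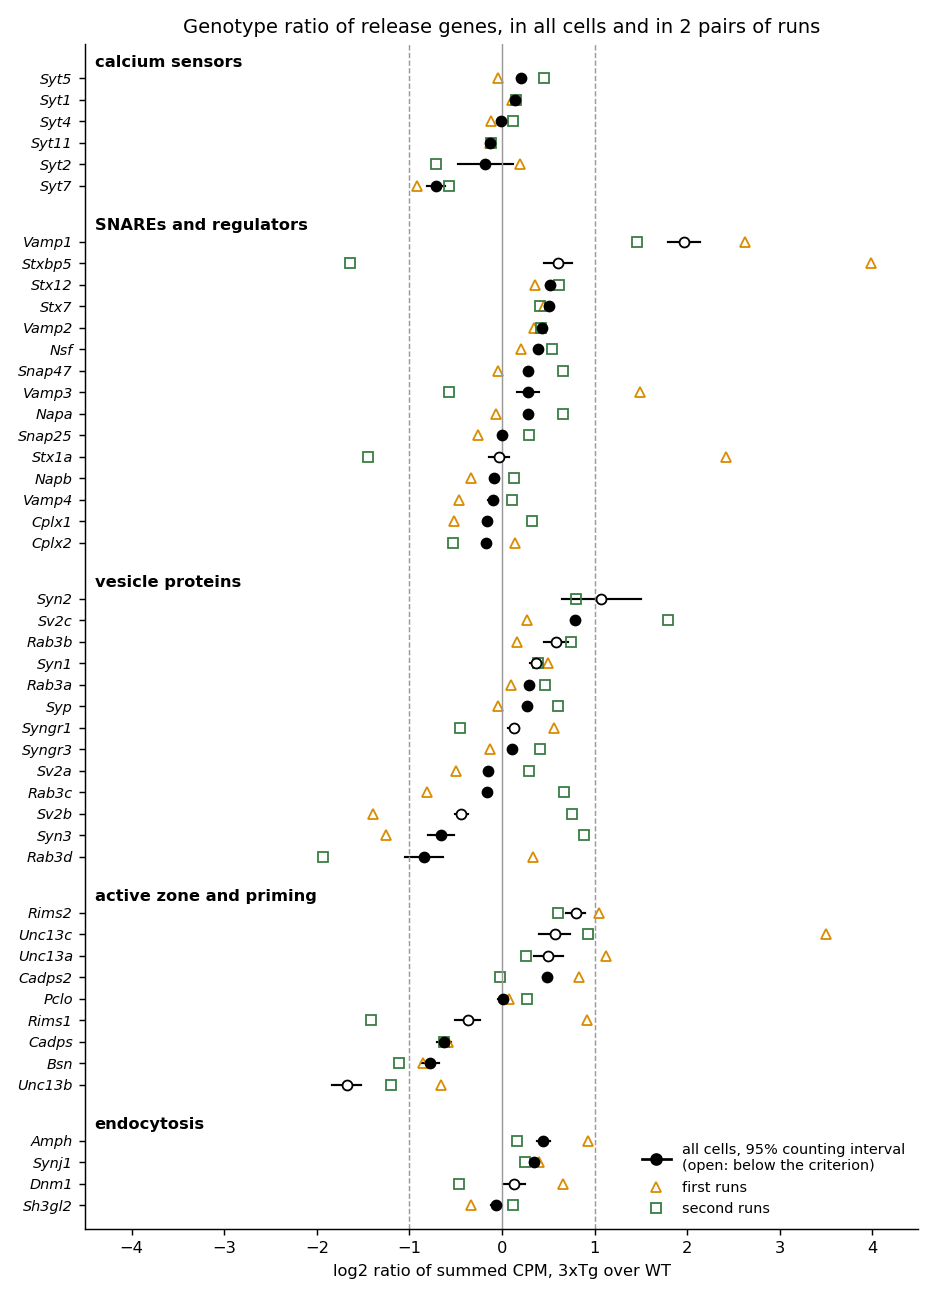
Black points give the log2 ratio of summed CPM, 3xTg over WT, with its 95% counting interval, for 47 genes (Synpr has no ratio), and open points mark genes below the expression criterion. The triangle (first runs) and the square (second runs) of a gene lie farther apart than its counting interval is wide for 42 of 46 genes with both, and dashed lines mark 2-fold.

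Synaptotagmin mRNA was dominated by Syt1, the fast calcium sensor of synaptic vesicles, and Syt4, a family member that does not bind calcium in the usual way. The level of Syt1 was 404 CPM per kilobase in 3xTg and 366 in WT, and that of Syt4 was 411 and 415. Both ranked among the upper expressed genes, at 195 and 173 of 3706 with a known length. Which of them led within a cell was not settled at this number of cells. Syt1 was above Syt4 in 17 of 33 3xTg cells (51.5%, exact interval 33.5 to 69.2%) and in 14 of 35 WT cells (exact interval 23.9 to 57.9%). Syt11, another member that does not sense calcium in this way, followed at 214 and 233 CPM per kilobase and Syt5 at 162 and 141. Syt7, a slow sensor tied to asynchronous release and to release from the soma, stood at 22.7 and 37.2, and Syt2, the fast sensor of many hindbrain and inhibitory synapses, at 0.74 and 0.83.

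Syt1 (chr10:108497650-109010975, mm10, minus strand) had a lowest, median and highest value of 208, 1945 and 3516 CPM over the 3xTg cells and of 242, 1559 and 3921 CPM over the WT cells. Its ratio was 0.14 (0.13 to 0.16), with 0.11 in the first and 0.16 in the second runs. The cells of both genotypes covered the same range. Syt2 summed to 186 counts in 3xTg (Poisson interval 160 to 215) and 195 in WT (169 to 224), and a difference was not detectable at this depth (ratio -0.18, -0.48 to 0.12, with 0.19 and -0.72 in the pairs of runs). It was nonetheless counted in 26 and 28 cells, mostly at a few counts each, and at least 10 counts were found in 4 cells of each genotype. Syt7 had a ratio of -0.71 (-0.81 to -0.61), and it was -0.92 and -0.57 in the 2 pairs of runs. In WT, cell 5 held 22.9% of its counts, and the ratio was -0.37 without that cell.

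Snap25, the SNARE that lies along the inner face of the plasma membrane, had the highest level of all 48 genes and rank 9 among the expressed genes. It stood at 2171 CPM per kilobase in 3xTg and 2163 in WT. Snap25 (chr2:136713450-136782428, plus strand) ranged from 1072 to 10607 CPM over the 3xTg cells (median 4662) and from 1307 to 10620 CPM over the WT cells (median 4231). The genotypes overlapped throughout, and the ratio was 0.01 (-0.00 to 0.02), made of -0.26 in the first and 0.30 in the second runs. Snap25 was above Snap47, a widely expressed relative, in all 33 and all 35 cells.

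The vesicle SNARE was mainly Vamp2. Per kilobase, Vamp2 exceeded the sum of Vamp1 and of the endosomal forms Vamp3 and Vamp4 in 33 of 33 3xTg cells (100%, 89.4 to 100%) and in 32 of 35 WT cells (91.4%, 76.9 to 98.2%). Vamp2 (chr11:69088528-69092381, plus strand) had a lowest, median and highest value of 193, 1173 and 2496 CPM in 3xTg and of 73.6, 652 and 2075 CPM in WT. The ranges overlapped, and the ratio was 0.43 (0.41 to 0.45), with 0.34 and 0.42 in the 2 pairs of runs. Across the table the summed dopamine neuron markers had a ratio of 0.34, and what part this has in the value of Vamp2 was not tested.

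Stx1a, the plasma membrane syntaxin of release, was the patchiest of the core SNAREs. It was counted in 16 of 33 3xTg cells (48.5%, 30.8 to 66.5%) and in 13 of 35 WT cells (37.1%, 21.5 to 55.1%). In the cells that held it, the median was 61.6 CPM in 3xTg and 46.9 CPM in WT, and the highest cells reached 306 and 485 CPM. The summed level of 38.2 CPM in 3xTg and 39.004 CPM in WT (Stx1a, chr5:135023572-135051099, plus strand) gave a ratio of -0.03 (-0.14 to 0.08). The 2 pairs of runs went opposite ways, at 2.42 and -1.45, and the first WT run stood at 8.62 CPM and the second at 73.5 CPM. Cell 72 held 41.5% of the counts in WT, and the ratio was 0.69 without it.

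Genes of a like summed level differed widely in the number of cells that held them. Among 3xTg cells, 1292 genes of the table had a summed level from 30 to 45 CPM, and they were counted in a median of 21 of 33 cells (quartiles 18 and 26). Of the 7 release genes in this range, Bsn was counted in 29, Syt7, Vamp3 and Dnm1 each in 28, Vamp1 in 27, Stx1a in 16 and Rab3b in 14. Stx1a and Rab3b thus lay below the lower quartile in 3xTg and the other 5 above the upper one. Among WT cells, 1417 genes lay in the same range and were counted in a median of 17 of 35 cells (quartiles 13 and 24). There Stx1a, in 13 cells, lay at the lower quartile, Rims2 (18), Rims1 (20) and Unc13b (21) lay between the quartiles, and Dnm1 (26) and Vamp3 (27) lay above the upper one.

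Cplx1, a complexin that clamps and promotes fusion, was above Cplx2 per kilobase in 33 of 33 3xTg and 33 of 35 WT cells, at 660 and 739 CPM per kilobase in the sums. Its ratio was -0.16 (-0.18 to -0.15), from -0.52 in the first and 0.32 in the second runs. The genes that take SNARE complexes apart ranked 466 (Napa), 505 (Nsf) and 598 (Napb). Nsf, the ATPase of this step (chr11:103821783-103954056, minus strand), had a lowest, median and highest value of 2.89, 615 and 1835 CPM in 3xTg and of 0, 507 and 1919 CPM in WT, and its ratio was 0.39 (0.36 to 0.42), with 0.21 and 0.54 in the pairs of runs. Its adaptor Napa exceeded its brain relative Napb per kilobase in most 3xTg cells, since Napb was above Napa in 7 of 33 (21.2%, 9.0 to 38.9%), and in about as many WT cells as not, with Napb above in 17 of 35 (48.6%, 31.4 to 66.01%). These 2 intervals take cells as the unit, and whether the genotypes differ was not tested.

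The endosomal syntaxins Stx7 and Stx12 had ratios of 0.50 (0.46 to 0.55) and 0.52 (0.47 to 0.58). They passed the criterion through 3xTg alone, with a count in 29 of 33 3xTg cells each and in 26 and 25 of 35 WT cells, and their ratios were above 0 in both pairs of runs (0.45 and 0.41, 0.35 and 0.62). For Stx7, 3xTg cell 24 held 23.4% of the 3xTg counts and WT cell 9 held 24.2% of the WT counts, and without each of them in turn the ratio was 0.16 and 0.85. Stxbp5 (tomosyn), which competes for syntaxin and had the lowest sum of its group, was counted in 15 and 11 cells. Its summed level was 26.7 and 17.5 CPM, and the ratio of 0.61 (0.46 to 0.76) was made of 3.99 in the first and -1.64 in the second runs. Cell 26 held 48.1% of the 3xTg counts, and the ratio was -0.30 without it. Cell 71 held 43.4% of the WT counts, and the ratio was 1.39 without it.

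Vamp1, a synaptobrevin known mostly from spinal cord and motor nerve terminals, had the largest ratio of the 48 genes. It lies outside the rule for named genes and was chosen after its values had been seen. Vamp1 (chr6:125215581-125222306, plus strand) was counted in 27 of 33 3xTg cells (exact interval 64.5 to 93.02%) and in 21 of 35 WT cells (42.1 to 76.1%), and at least 10 counts were found in 16 and 9 cells. The sum was 1391 counts in 3xTg (1319 to 1466) and 330 in WT (295 to 368). The cells had a lowest, median and highest value of 0, 7.69 and 170 CPM in 3xTg and of 0, 1.75 and 63.1 CPM in WT, so the genotypes overlapped, with the highest cells in 3xTg. The summed levels of 37.9 and 9.70 CPM differed 3.91-fold, a ratio of 1.97 (1.79 to 2.14).

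This held in both pairs of runs, at 2.62 and 1.45. The first and second 3xTg runs stood at 37.7 and 38.2 CPM, and the WT runs at 6.12, 13.9 and 8.96 CPM in label order. Leaving out each cell in turn gave 1.79 to 2.31. Without the 5 cells of each genotype that held Pvalb, Tmem119, P2ry12 or Aldh1l1 the ratio was 1.93, and the levels in the remaining cells were 36.5 and 9.62 CPM. Of the GABA neuron markers, Gad2 was counted in every cell and could not divide them. In cells without the other GABA markers, Slc32a1, Gad1 and Pvalb, Vamp1 stood at 31.2 CPM in 27 3xTg cells and at 11.5 CPM in 26 WT cells. In cells with at least 1 of them it stood at 63.5 CPM in 6 3xTg cells and at 4.43 CPM in 9 WT cells. With a filter that ignores genotype (a count in at least 50% of all 68 cells), 42 of the 48 genes were kept. Vamp1 was the gene of these that was at least 2-fold higher, against 4.57% of all 7304 genes kept, and Unc13b the gene that was at least 2-fold lower, against 6.2%. Per kilobase Vamp1 remained far below Vamp2, at 12.6 against 517 CPM in 3xTg and 3.22 against 384 CPM in WT.

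**Figure D4:**
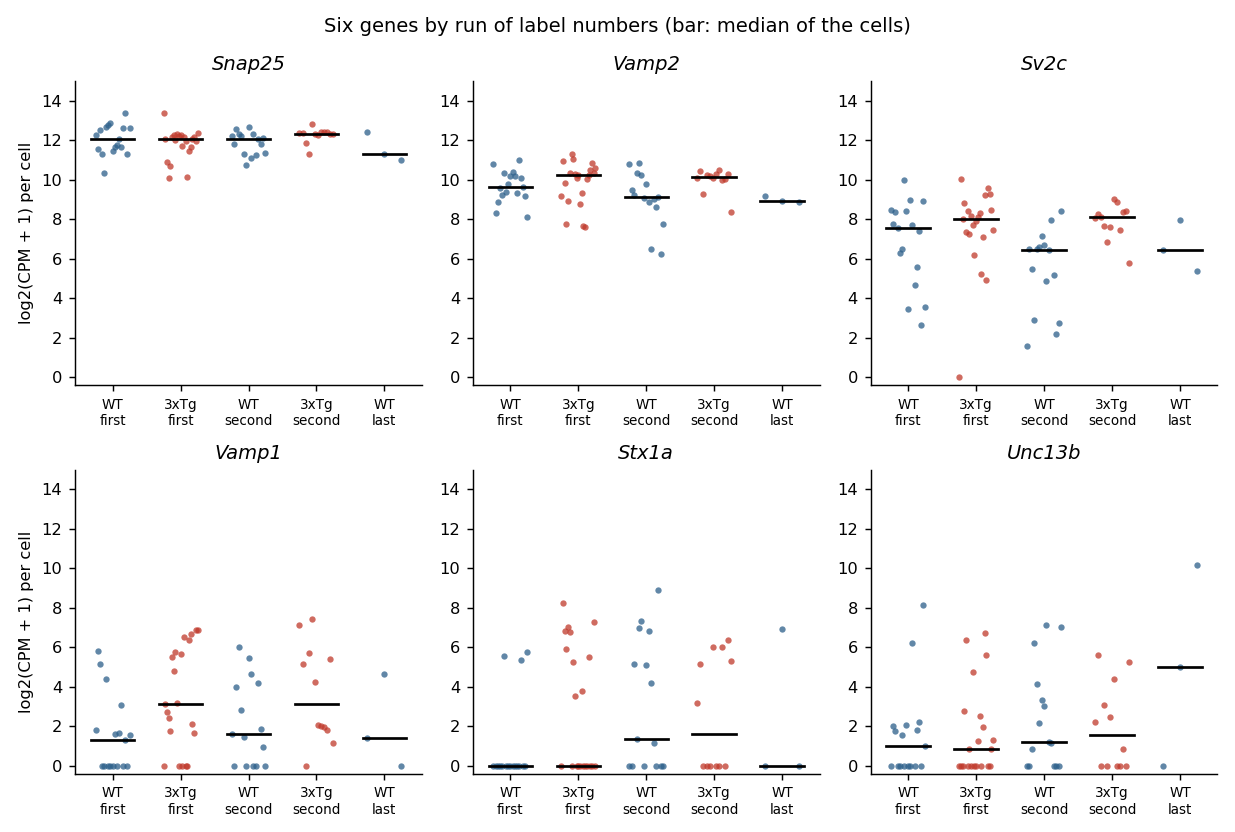
Each point is 1 cell, and the vertical axis is log2(CPM + 1) of Snap25, Vamp2, Sv2c, Vamp1, Stx1a and Unc13b in the 5 runs of label numbers, WT in blue and 3xTg in red, with a bar at the median. Sv2c is lower in the second WT run than in the first WT and both 3xTg runs, Stx1a lies at 0 in most cells, and 1 cell of the last WT run stands far above the rest for Unc13b.

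Rab3a, the small GTPase that tethers vesicles for release, was the highest vesicle protein gene, at 895 CPM per kilobase in 3xTg and 733 in WT (rank 45). The cells ran from 2.25 to 2107 CPM in 3xTg (median 1260) and from 62.8 to 3179 CPM in WT (median 962), and the ratio was 0.29 (0.27 to 0.31), with 0.10 and 0.46 in the pairs of runs. Rab3a and Rab3c together exceeded Rab3b and Rab3d in every cell of both genotypes. Rab3c (chr13:110054187-110280206, minus strand) had a lowest, median and highest value of 50.3, 860 and 2059 CPM in 3xTg and of 20.3, 816 and 3259 CPM in WT. Its ratio was -0.16 (-0.18 to -0.14), from -0.81 in the first and 0.67 in the second runs. Rab3d had the lowest ratio of the expressed genes, -0.84 (-1.05 to -0.64), at 8.77 and 15.7 CPM, and it too changed sign between the pairs, from 0.34 to -1.94.

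Syngr3, a synaptogyrin that binds the dopamine transporter, was the second vesicle protein gene at 473 and 440 CPM per kilobase, and it exceeded Syngr1 in 33 of 33 and 34 of 35 cells. Syp (synaptophysin, chrX:7638580-7653256, plus strand) had a lowest, median and highest value of 80.05, 355 and 861 CPM in 3xTg and of 0, 231 and 841 CPM in WT, and a ratio of 0.27 (0.23 to 0.30) that came from the second runs (0.61) and not from the first (-0.04). Its relative Synpr was not counted in 3xTg and had 3 counts in 1 WT cell. A count of 0 in 33 cells allows a share of up to 10.6% of cells with a count, and no ratio was taken.

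Sv2c, the vesicle protein SV2 form that is prominent in basal ganglia and dopamine neurons, had the highest ratio among the expressed genes. The cells had a lowest, median and highest value of 0, 271 and 1032 CPM in 3xTg and of 2.02, 89.99 and 1019 CPM in WT, which overlapped. The summed levels of 286 and 165 CPM (Sv2c, chr13:95959443-96132577, minus strand) gave a ratio of 0.79 (0.74 to 0.84). It was 0.27 in the first and 1.80 in the second runs. The run levels were 247 (WT), 298 (3xTg), 77.1 (WT), 268 (3xTg) and 134 (WT) CPM in label order, so both 3xTg runs were above the first WT run by a little and above the other WT runs by far. Without WT cell 9, which held 21.1% of the WT counts, the ratio was 1.08. Sv2c was above Sv2a per kilobase in 9 of 33 3xTg cells (27.3%, 13.3 to 45.5%) and in 11 of 35 WT cells (31.4%, 16.9 to 49.3%).

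The synapsins, which bind vesicles to each other and to actin, ranked 1747 (Syn1), 3134 (Syn3) and 3690 (Syn2) per kilobase. Syn1 was counted in 27 and 25 cells and stood at 37.9 and 29.3 CPM per kilobase, with a ratio of 0.37 (0.31 to 0.44) and 0.50 and 0.39 in the pairs of runs. Syn3 stood at 4.49 and 7.09. Its ratio of -0.66 (-0.80 to -0.51) was -1.25 in the first and 0.89 in the second runs, and it turned to 0.18 without WT cell 6, which held 45.7% of the WT counts. Syn2 (chr6:115134902-115282626, plus strand) was counted in 5 of 33 3xTg cells (15.2%, 5.1 to 31.9%) and 2 of 35 WT cells (5.7%, 0.7 to 19.2%). The highest cells held 56.9 and 51.9 CPM and the medians were 0. The sums were 154 counts in 3xTg and 68 in WT, and 1 WT cell, 60, held 95.6% of the latter, so that the ratio of 1.07 (0.65 to 1.503) ran from 0.21 to 5.52 when each cell was left out in turn. The 3 synapsin genes overlap genes of the Timp family in the table, and whether the counting used strand is not stated.

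The scaffold and priming genes were low per kilobase, and they hold the longest transcripts of the 48. Cadps2, a CAPS protein that primes dense-core and amine vesicles, led them at 52.8 CPM per kilobase in 3xTg and 37.5 in WT. The cells ran from 0 to 1618 CPM in 3xTg (median 217) and from 0 to 808 CPM in WT (median 102), and the ratio of 0.49 (0.44 to 0.54) came from the first runs (0.83 against -0.02). Cell 24 held 18.9% of the 3xTg counts, and the ratio was 0.23 without it. Without the cells that held a marker of another cell type, the ratio of Cadps2 was 0.31. Its paralog Cadps had a ratio of the other sign, -0.63 (-0.70 to -0.55), with -0.59 and -0.62 in the pairs of runs. On the mean over cells the differences were 2.07 for Cadps2 and 0.30 for Cadps, against 0.47 for the median gene, so that Cadps lay below the median gene (-0.17 relative to it) and Cadps2 above it. Cadps2 was above Cadps in 27 of 33 3xTg cells (exact interval 64.5 to 93.02%) and in 19 of 35 WT cells (54.3%, 36.6 to 71.2%). These intervals overlap.

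Of the 2 giant active zone scaffolds, Pclo (piccolo) was counted in every cell, at 150 and 149 CPM, with a ratio of 0.01 (-0.05 to 0.06), which was 0.08 and 0.27 in the pairs of runs and -0.16 without 3xTg cell 50. Bsn (bassoon) was counted in 29 cells of each genotype at 37.7 and 64.8 CPM, with a ratio of -0.78 (-0.88 to -0.68) that was -0.85 and -1.11 in the pairs of runs. WT cell 9 held 41.6% of the WT counts of Bsn, and the ratio was -0.06 without it. On the mean over cells Bsn differed the other way, by 0.47, the same as the median gene.

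Rims1, an organizer of the active zone, appears as 2 rows of the table, which were summed. One covers chr1:22288422-22432843 with 685 and 807 counts in 3xTg and WT, the other chr1:22468191-22805724 with 179 and 227 counts. The cells had a lowest, median and highest value of 0, 10.5 and 91.1 CPM in 3xTg and of 0, 6.03 and 263 CPM in WT. The ratio was -0.37 (-0.50 to -0.24), from 0.92 in the first and -1.41 in the second runs, and 0.04 without WT cell 73. Rims2 was counted in 24 and 18 cells, with a ratio of 0.80 (0.69 to 0.90) that was 1.05 and 0.61 in the pairs.

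Munc13 genes, which open syntaxin for priming, were scarce. Unc13a was counted in 23 and 19 cells at 23.5 and 16.6 CPM. Unc13c (chr9:73479424-73933567, minus strand), the lowest sum of the group, was counted in 16 of 33 and 16 of 35 cells, with medians of 0 and highest values of 178 and 290 CPM. Its ratio was 0.57 (0.40 to 0.73), with 3.503 and 0.93 in the pairs of runs. WT cell 94 held 70.7% of the WT counts, and the ratio was 2.29 without it. Unc13b lies outside the rule for named genes and was chosen after its values had been seen. Its sums of 426 counts in 3xTg and 1263 in WT gave a ratio of -1.68 (-1.84 to -1.52), with -0.65 and -1.20 in the pairs of runs. WT cell 96 alone, at 1135 CPM, held 44.3% of the WT counts. Without that cell the ratio was -0.86, without the last WT run it was -0.89, and with thinned cells it was -1.05.

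Of the endocytosis genes, Sh3gl2 (endophilin A1) led per kilobase at 57.8 and 60.4 CPM, with a ratio of -0.06 (-0.12 to -0.01) that was -0.33 in the first and 0.12 in the second runs and 0.12 without WT cell 6. Synj1 (synaptojanin, the lipid phosphatase of uncoating) had the highest sum, with cells from 0 to 667 CPM in 3xTg (median 237) and from 0 to 684 CPM in WT (median 205), and a ratio of 0.35 (0.30 to 0.39) that was 0.40 and 0.25 in the pairs of runs. Amph (amphiphysin), which senses membrane curvature and recruits dynamin, was counted in 30 and 24 cells with a ratio of 0.45 (0.38 to 0.51), and 0.93 and 0.16 in the pairs of runs. Dnm1, the neuronal dynamin (chr2:32308471-32353304, minus strand), was the lowest at 9.32 and 8.53 CPM per kilobase. It was counted in 28 of 33 and 26 of 35 cells with a median of 13.5 and 15.8 CPM, a highest value of 353 and 148 CPM and a ratio of 0.13 (0.01 to 0.25), which was 0.66 and -0.46 in the pairs of runs. The ratio was -0.46 without the cells that held a marker of another cell type and -0.15 without 3xTg cell 43.

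**Figure D5:**
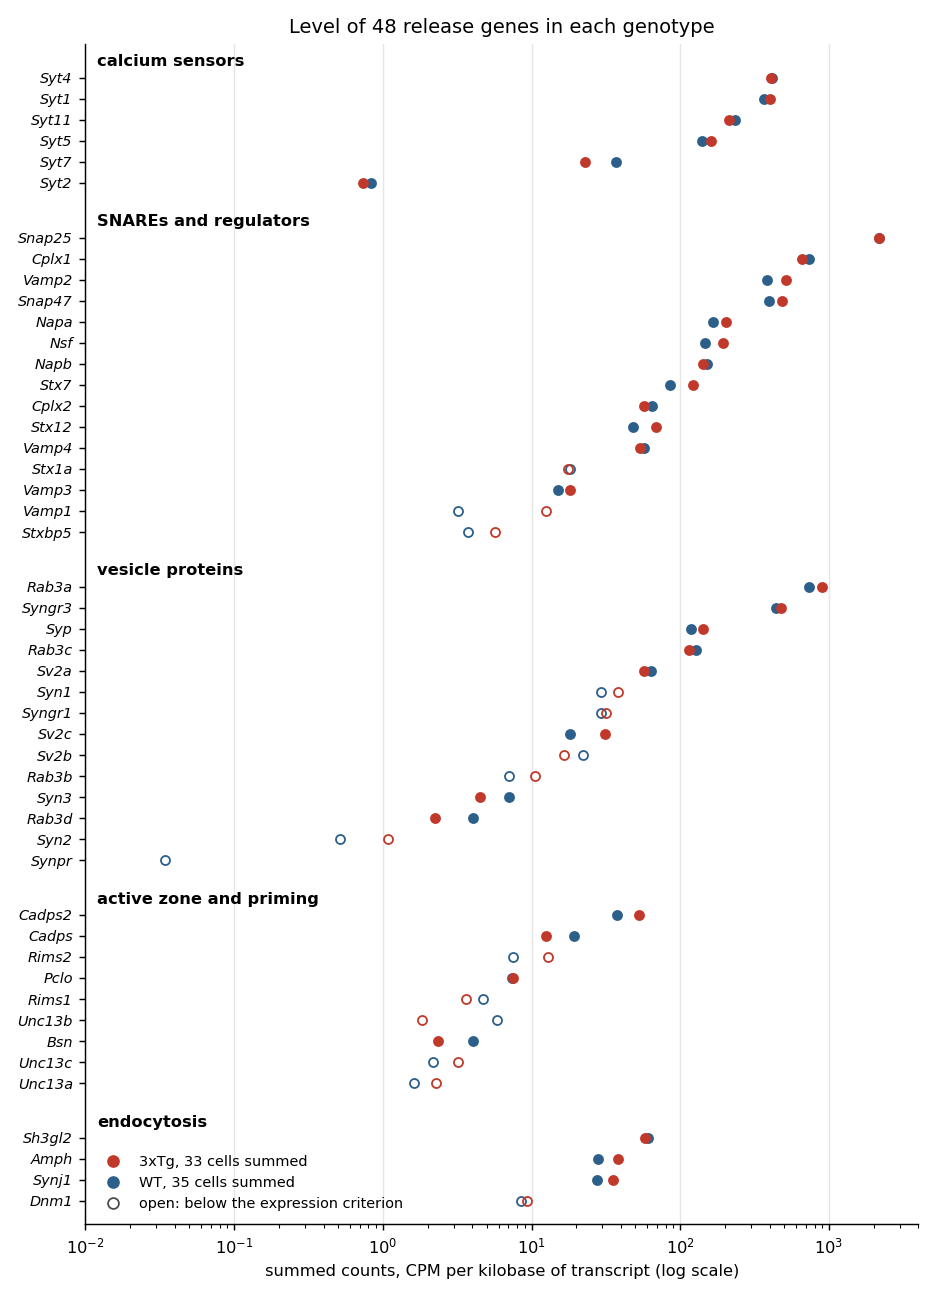
Points give the summed level of each gene in CPM per kilobase of transcript on a log scale, 3xTg in red and WT in blue, by role group and in falling order, with open points for genes below the expression criterion. Snap25 stands alone at the top, the 2 genotypes lie close together for most genes, and Vamp1 and Unc13b are the most separated pairs apart from Synpr, which has a WT point only.

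Pairs of release genes that were counted in all cells are described within each genotype. For the 12 release genes that no cell lacked, which form 66 pairs, the median Pearson's r of log2(normalized count + 1) was 0.41 over the 33 3xTg cells (from -0.32 to 0.82) and 0.37 over the 35 WT cells (from -0.42 to 0.84). Over all pairs of the 787 genes that no cell lacked, the median r was -0.01 in both genotypes. The size factors were set on these same 787 genes, so that value is drawn towards 0 by the scaling and is no reference level for 12 genes. The highest pair was Syt4 with Syngr3 in 3xTg (r = 0.82, Spearman's rho 0.51) and Napb with Rab3a in WT (r = 0.84, rho 0.73). Cells share depth and RNA quality, and the values are descriptions over cells.

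Release genes spread more among the WT cells. The coefficient of variation of CPM over cells was larger in WT for 30 of the 33 expressed genes (medians 0.95 in WT and 0.69 in 3xTg), and it was larger in WT for 72.9% of all expressed genes. In the first runs this was 28 of 33 (71.4% of all) and in the second runs 29 of 33 (77.01% of all). The WT cells also had the lower totals and fewer genes counted, and the part of these in the spread was not tested.

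Of 43 further genes of release and vesicle recycling, 18 were expressed, and of these none was by summed CPM at least 2-fold higher and 1 at least 2-fold lower in 3xTg (Stxbp5l, ratio -1.33), with a median ratio of -0.12. The shares over all expressed genes are 2.63% higher and 3.81% lower, as above. On the mean over cells the 18 had a median difference of 0.45, against 0.47 for all expressed genes. Dnm3 (2.10), Cltc (2.00), Syt13 (1.59), Snap91 (1.47) and Dnajc5 (1.09) were at least 1 log2 unit higher, as were 27.7% of all expressed genes. The lowest was Stxbp5l (-0.63). Of the 18, 14 passed the criterion in both genotypes. Clathrin heavy chain (Cltc) and Dnm3 stood at 309 and 209 and at 206 and 153 CPM, so Dnm3 exceeded Dnm1 in both genotypes by sums that are not adjusted for length. Of 16 SNAREs of the endoplasmic reticulum, Golgi and endosomes, 4 were expressed, 1 was at least 2-fold higher (Bet1, ratio 1.54) and none was lower, beside the same shares over all expressed genes, with a median ratio of 0.09. Bet1 passed the criterion through 3xTg alone, with a count in 27 3xTg and 13 WT cells. On the mean over cells the differences of the 4 were 2.65 (Bet1), 1.14 (Vti1b), 1.07 (Use1) and 0.48 (Sec22b). By summed CPM Use1 and Sec22b went the other way, with ratios of -0.18 and -0.33. With the filter that ignores genotype 10 of the 16 were kept, of which Bet1 was at least 2-fold higher, against 4.57% of all genes kept. The summed level of these 16 genes was 1145 CPM in 3xTg and 1022 CPM in WT, against 11038 and 10364 CPM for the 15 SNAREs and regulators of the machinery.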

How the data were processed

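Patch-seq libraries of 68 neurons were analysed. The authors deposited estimated counts per gene (not all whole), made in Strand NGS 4.0 by trimming, aligning to the mm10 RefSeq transcriptome, removing duplicates and counting. They also deposited log2 values after DESeq2 normalization, with a constant of its own taken from each gene, and these served as an alternative only. Rows that share a gene ID were summed. Counts were rounded for sums, CPM and thinning. Size factors (median of ratios over 787 genes) were calculated on unrounded counts. Poisson and Clopper-Pearson intervals were calculated by the exact method at 95%. Those of sums and ratios cover counting error only, and those of shares of cells cover the sampling of cells. No molecular identifiers are stated and not all counts are whole, so the real coverage for sums and ratios is unknown.

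Transcript lengths are those of GENCODE M21 (GRCm38, the same assembly as mm10), the longest with a RefSeq accession, found for all 48 genes. Coordinates are those of the deposited table. The 48 genes and all lists were chosen with earlier results of these data known. Named with full values were Syt1, Snap25, Stx1a, Vamp2, Nsf, Syp, Sv2c, Syn2, Rab3c, Rims1, Unc13c and Dnm1, every expressed gene past 2-fold by summed CPM, and the highest and lowest sum of each role group. A minimum count, another weighting, thinning (to 700471 counts, leaving out 2 3xTg and 5 WT cells), TMM factors, other pseudocounts, other filters, runs, cells without other markers and each cell left out in turn were tried. The calculations were tested on simulated data. Doublets were not called. Some genes of the list of further release genes are not reported here and are left out of its values. Python 3.11.15, numpy 2.4.6, scipy 1.17.1 and R 4.3.3 with edgeR 4.0.16 (TMM factors only) were used.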

Additional observations from a re-analysis of the deposited data

How the results depend on the processing

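With no test between genotypes, a median is said to move when it shifts by more than 0.04, the median half-width of the counting intervals, and a count of genes past 2-fold when it changes by over 1.5 times. The median ratio of 0.01 was 0.066 with equal weight of cells, 0.065 with thinned cells, 0.060 with TMM factors, 0.12 with size factors before summing (which moved the median of all expressed genes from -0.03 to 0.09), 0.073 without cells that held another cell type's marker, -0.038 in the first runs, 0.27 in the second runs, 0.12 with the filter that ignores genotype, 0.13 with no filter, and 0.10 without the last WT run, a setting chosen after seeing the data. Leaving out each cell gave -0.029 to 0.14. By summed CPM no expressed gene was at least 2-fold higher except 1 with size factors before summing (Sv2c), 1 in the first runs (Vamp3) and 1 in the second (Sv2c). The filter that ignores genotype gave 1, no filter 2, and leaving out each cell 0 to 1. At least 2-fold lower were 1 in the first runs (Syn3), 2 in the second (Rab3d and Bsn), 1 with the filter that ignores genotype, 1 with no filter, and 0 to 1 on leaving out each cell. On the mean over cells, counted after seeing the data, 8 expressed genes were at least 1 log2 unit higher and 0 lower. The 8 were 4 with a pseudocount of 10, 4 with thinned cells, 4 with the median gene subtracted, 2 in the first runs, 15 in the second (with 1 lower), 12 with either other filter (of 42 genes kept or of all 48) and 6 to 10 on leaving out each cell. Shares over all genes were counted only in some settings. By summed CPM these were the main setting and the filter that ignores genotype. On the mean over cells they were the main setting and the median gene subtracted. The median difference of all expressed genes was 0.39 in the first and 0.60 in the second runs. The median difference of the 33 expressed release genes, 0.47, was 0.52 and 0.34 with pseudocounts of 0.1 and 10, 0.36 with CPM, 0.29 with thinned cells, 0.58 without the marker cells, 0.21 and 0.92 in the first and second runs, 0.38 without the last WT run, and 0.36 to 0.56 on leaving out each cell. The difference in the median number of release genes counted per cell, 2 in all cells, was 3.5 with thinned cells, 3 without the marker cells, 5 in the first runs, 2 in the second and 2 to 3 on leaving out each cell. The SD over single cells was 5.62, which is too wide a measure for a difference of medians to call these shifts small. The causes were not tested.

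No paired analysis was possible because the genotypes share no label number. Leaving out 1 cell changed the sign of the ratio for 11 of the 33 expressed genes and for 5 of the others, and Vamp1, Unc13b and Syn2 kept their sign under every setting that gave a ratio (Syn2 had no count in the first WT run). Low sums limit Syt2, Syn2 and Synpr. The labels name no animal, so the spread between mice is unknown.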
